A study of Mus musculus with 6 samples.

Results

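The interferon-stimulated genes described here are 45 mouse genes that cells transcribe in response to interferon, followed over the 6 arrays of a study of mammary tumour cells. Members were listed by symbol, with earlier results of these data known. Of the 45, 42 had at least 1 probe set that the array annotation assigned to that symbol alone, among 18193 genes so represented in the whole table. Isg15, Ifi205 and Ifi44 had none and were not analysed here. Where a gene had several such probe sets, the brightest by mean log2(signal + 50) stood for it. A mean signal of at least 100 over the 6 arrays was required for testing, which 27 members reached, among 9361 genes in all. Ifit3, Trim30a, Parp14 and Iigp1, 4 of the 27, reached a mean of 100 in parental cells only, so the filter favoured a lower value in HML2 for them.

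E0771-HML2 cells were obtained from E0771, a C57BL/6 mouse mammary tumour line, by injection into the mammary fat pad of syngeneic mice and retrieval of metastasised cells from the lung, done in 2 rounds. They were set against the unselected parental E0771 population. Each group had 3 cultures, numbered 1 to 3 and called biological replicates in the labels, with 1 Affymetrix Mouse Genome 430 2.0 array per culture. Both had grown for 3 days in medium with 10% serum and antibiotics, with no interferon or other agent named, so all values describe cultured cells. The labels do not say how many animals gave rise to the HML2 population or whether its cultures came from different animals, and p-values therefore measure the spread between cultures. The trimmed mean signal was 500 on every array. In RNA of whole cultures, fewer cells expressing a gene and less messenger RNA per cell cannot be told apart. Bacterial control probe sets, a gauge of background, read 1.97 to 36.2. The replicate 1 arrays of both groups stood apart in the genes described here, and counts of calls are therefore given with and without them.

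Interferons are secreted when cells sense viral or misplaced nucleic acid. Type I interferons bind a receptor made of Ifnar1 and Ifnar2, whose kinases Jak1 and Tyk2 activate STAT proteins. A complex that contains Stat2 and Irf9 then binds the interferon-stimulated response element (ISRE) before many target genes, while interferon-gamma acts mainly through a different element, the gamma-activated site (GAS). Many of the induced proteins block viral replication or serve in the sensing pathway itself, and tumour cell lines often express part of the programme without infection.

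Many members share a promoter element through which interferon acts, and stretches of 6 members that hold its letters, chosen for that, are shown. RefSeq windows of assembly GRCm38.p6, 250 bases before to 50 bases after a gene's annotated start, were available for 32 of the 45 members as 38 windows. The core letters of the ISRE, GAAA, any 2 bases and GAAA again, were searched on both strands and occurred in 19 of the 38 windows (50%), against 3.44% of all 32851 windows. The GAS letters, TTC, any 3 bases and GAA, which read alike on both strands, occurred in 8 member windows (21.1%), against 8.30% of all windows. In 1 member window, that of Bst2, the 2 motifs overlapped. A match is a description of the sequence and does not show that a factor binds there. The stretches below end at the base before the annotated start, run 5′ to 3′ on the gene's strand, and have the ISRE matches in capitals. They lie at chr19:34640739-34640888 (plus strand) for Ifit1, chr19:34583369-34583528 (plus) for Ifit3, chr5:120907526-120907675 (minus) for Oas1a, chr12:26456453-26456602 (minus) for Rsad2, chr11:58199406-58199555 (plus) for Igtp and chr8:71537473-71537622 (minus) for Bst2.
Ifit1: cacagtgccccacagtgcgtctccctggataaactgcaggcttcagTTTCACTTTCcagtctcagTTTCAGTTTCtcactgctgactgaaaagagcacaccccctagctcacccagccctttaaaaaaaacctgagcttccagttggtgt
Ifit3: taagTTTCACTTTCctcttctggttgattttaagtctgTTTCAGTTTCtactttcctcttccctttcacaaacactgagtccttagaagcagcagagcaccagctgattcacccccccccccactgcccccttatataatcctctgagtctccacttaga
Oas1a: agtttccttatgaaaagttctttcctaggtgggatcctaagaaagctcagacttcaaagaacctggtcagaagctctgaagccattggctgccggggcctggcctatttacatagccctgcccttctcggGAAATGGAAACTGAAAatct
Rsad2: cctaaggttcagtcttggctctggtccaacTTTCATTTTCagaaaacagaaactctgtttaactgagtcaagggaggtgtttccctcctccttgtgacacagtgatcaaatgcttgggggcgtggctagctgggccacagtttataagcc
Igtp: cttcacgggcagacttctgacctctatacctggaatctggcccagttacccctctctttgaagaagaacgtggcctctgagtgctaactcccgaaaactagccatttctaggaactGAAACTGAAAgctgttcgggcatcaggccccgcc
Bst2: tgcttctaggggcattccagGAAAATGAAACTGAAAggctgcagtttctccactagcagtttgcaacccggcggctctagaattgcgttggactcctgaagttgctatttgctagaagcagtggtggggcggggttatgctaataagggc

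Ifit1 and Ifit3, both on chromosome 19, held the same pair of matches, TTTCACTTTC and TTTCAGTTTC, beginning 104 and 85 bases before the start of Ifit1 and 156 and 122 bases before that of Ifit3. In Oas1a and Bst2 the 2 matches overlapped each other, and in Oas1a they began only 20 and 14 bases before the start. Rsad2 and Igtp had a single match each, beginning 120 and 34 bases before the start.

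The arrays numbered 1 carried high signals for interferon-stimulated genes in both groups. On HML2 replicate 1, 17 of the 27 members tested were higher than the mean of HML2 replicates 2 and 3 by at least 1 on the log2(signal + 50) scale, which 3.39% of all genes tested were. Parental replicate 1 showed the same for 13 of the 27 members, against 1.11% of all genes. Both conditions were met by 11 members and by 0.534% of all genes, which is 50 genes. The median difference over members was 1.18 in HML2 and 0.98 in parental cells, against 0.01 and 0.02 over all genes tested. These are differences of 1 array from 2 others and have no test, and the replicate 1 arrays were picked out with earlier results of these data known.

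**Figure D1:**
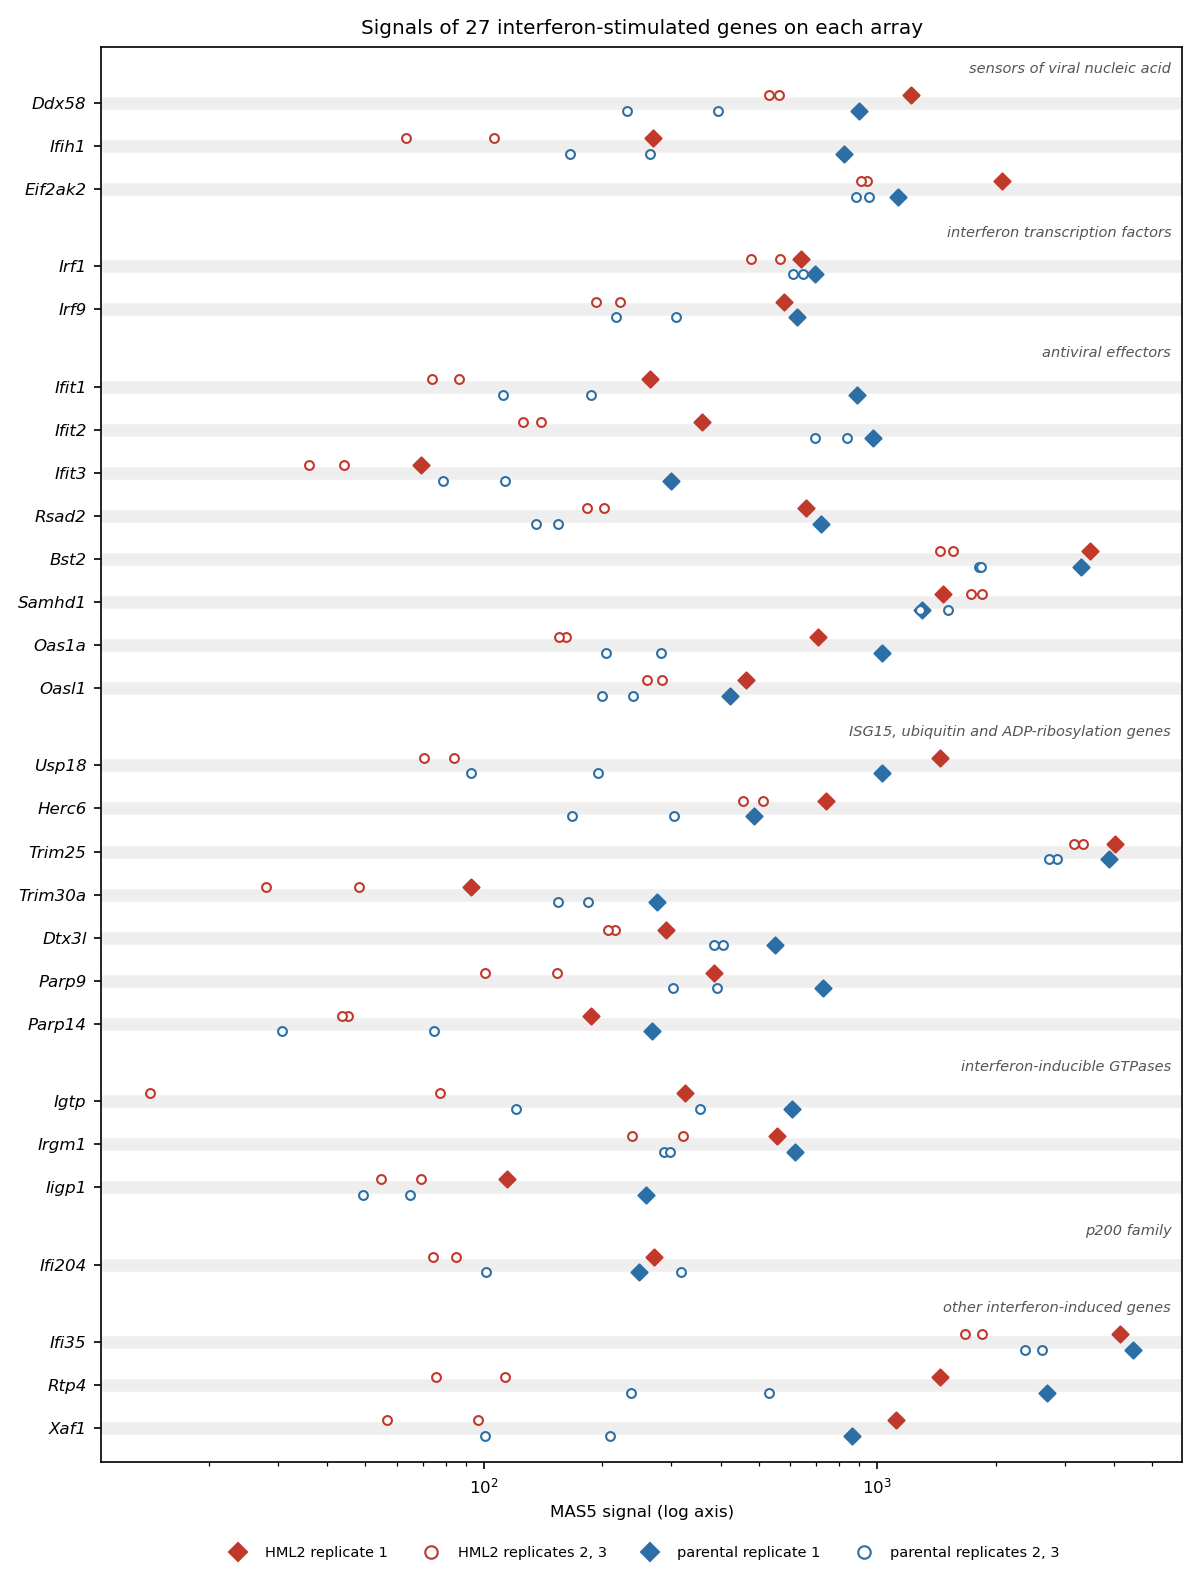
Signals of the 27 members tested (rows, grouped by function) on a log axis, with HML2 arrays in red above parental arrays in blue; diamonds mark replicate 1 and circles replicates 2 and 3. The diamonds lie to the right of both circles of their group for 26 members in HML2 and for 25 in parental cells, against 44.0% and 39.3% of all genes tested.

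Among the members, Usp18 had the widest gap on HML2 arrays. It encodes the protease that removes ISG15 from proteins and restrains signalling from the type I interferon receptor. Its signals were 1444, 70.4 and 83.9 on HML2 replicates 1 to 3, against 1027, 92.7 and 195 on the parental arrays. In each group the first array was high and the others were low, and the groups overlapped. Rtp4, an interferon-induced gene for a chaperone of receptor transport, had signals of 1441, 75.5 and 113 in HML2 and 2707, 237 and 531 in parental cells. Xaf1, whose product antagonises the apoptosis inhibitor XIAP, had signals of 1119, 96.8 and 56.6 in HML2 and 863 (replicate 1), 101 and 209.6 in parental cells. On the log2 scale, replicate 1 exceeded the mean of the other arrays by 3.56 for Usp18, 3.38 for Rtp4 and 3.22 for Xaf1 in HML2, and by 2.53, 2.76 and 2.21 in parental cells. The replicate 1 differences of the 2 groups had a Pearson correlation across the 27 members of 0.77 (Spearman 0.70), against 0.45 (Spearman 0.43) across all 9361 genes. These correlations run across genes, which are not independent replicates, and all points of a group share the same 3 arrays.

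The gap was small or absent for some members. Samhd1, a hydrolase that depletes deoxynucleotides, was slightly lower on replicate 1 in both groups, by -0.27 in HML2 and -0.10 in parental cells. Irf1, a transcription factor that responds chiefly to interferon-gamma, differed by 0.28 and 0.13. Trim25, a ubiquitin ligase that acts with the RNA sensor RIG-I, differed by 0.30 and 0.47. Some members stood out in 1 group more than in the other: Ifi204, a nucleic-acid-binding protein of the p200 family, by 1.31 in HML2 and 0.34 in parental cells, and Iigp1, an immunity-related GTPase, by 0.56 in HML2 and 1.53 in parental cells. Whether these gaps differ between the groups was not tested. Of the 15 members below the signal filter, 11 in HML2 and 11 in parental cells had their highest signal on replicate 1 and above the bacterial controls. Single signals in this set were between 1.14 and 264. Among them, Irf7, the transcription factor that amplifies interferon production, read 159, 9.60 and 55.4 in HML2 and 158, 56.5 and 118 in parental cells. Oasl2, an oligoadenylate synthetase-like gene, read 129, 19.4 and 4.94 in HML2 and 139.85, 1.59 and 40.4 in parental cells.

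**Figure D2:**
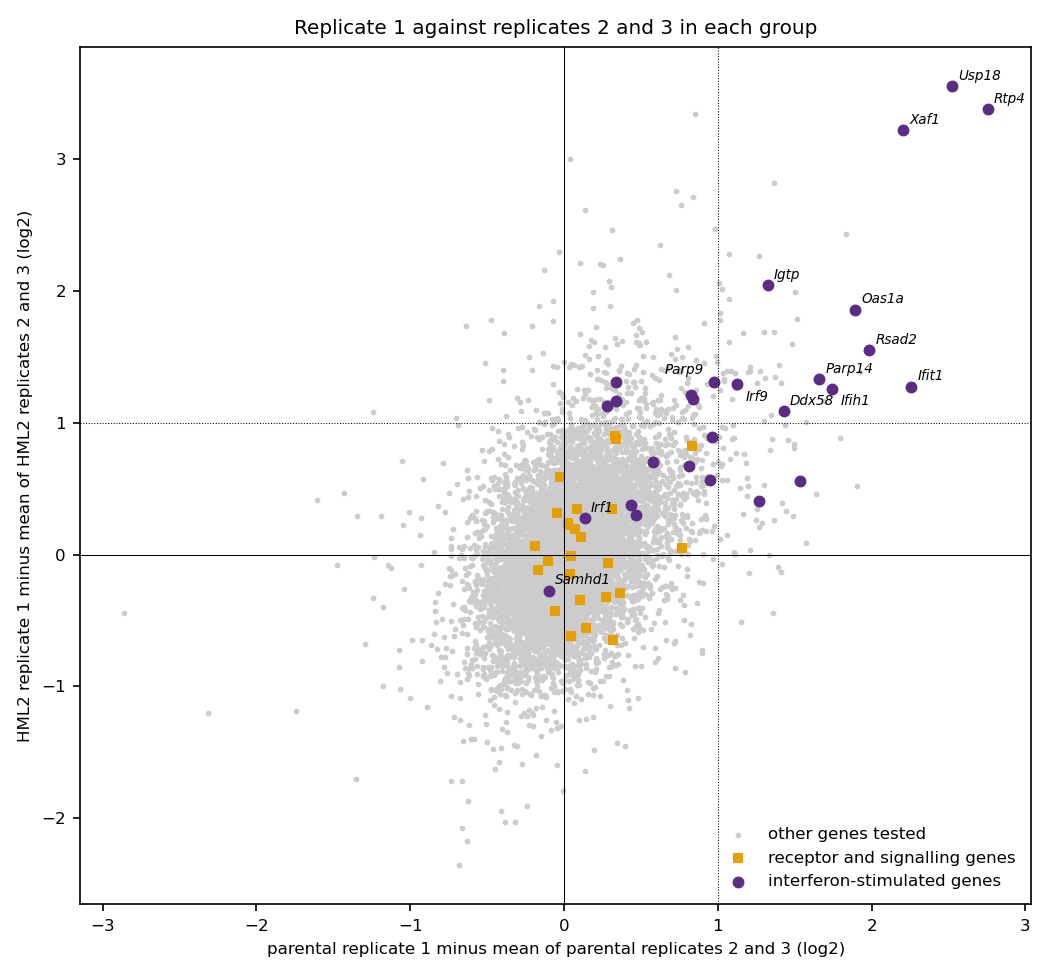
Difference of replicate 1 from the mean of replicates 2 and 3 on the log2(signal + 50) scale, in HML2 (vertical axis) and parental cells (horizontal axis); each point is 1 of the 9361 genes tested, and dotted lines mark a difference of 1. Usp18, Rtp4 and Xaf1 lie farthest to the upper right, and 11 members lie beyond both dotted lines, whereas no receptor or signalling gene does.

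Replicates 2 and 3 differed less. In parental cells, replicate 3 lay above replicate 2 for 22 of the 27 members, by a median of 0.33. In HML2 cells replicate 3 lay above replicate 2 for 16 members, by a median of 0.10. Relative to the parental mean, the median of the members was 0.44, -0.73 and -0.84 on HML2 replicates 1 to 3 and 0.65, -0.59 and -0.19 on the parental arrays. Both groups thus spanned more than 1 log2 unit in this set of genes.

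**Figure D3:**
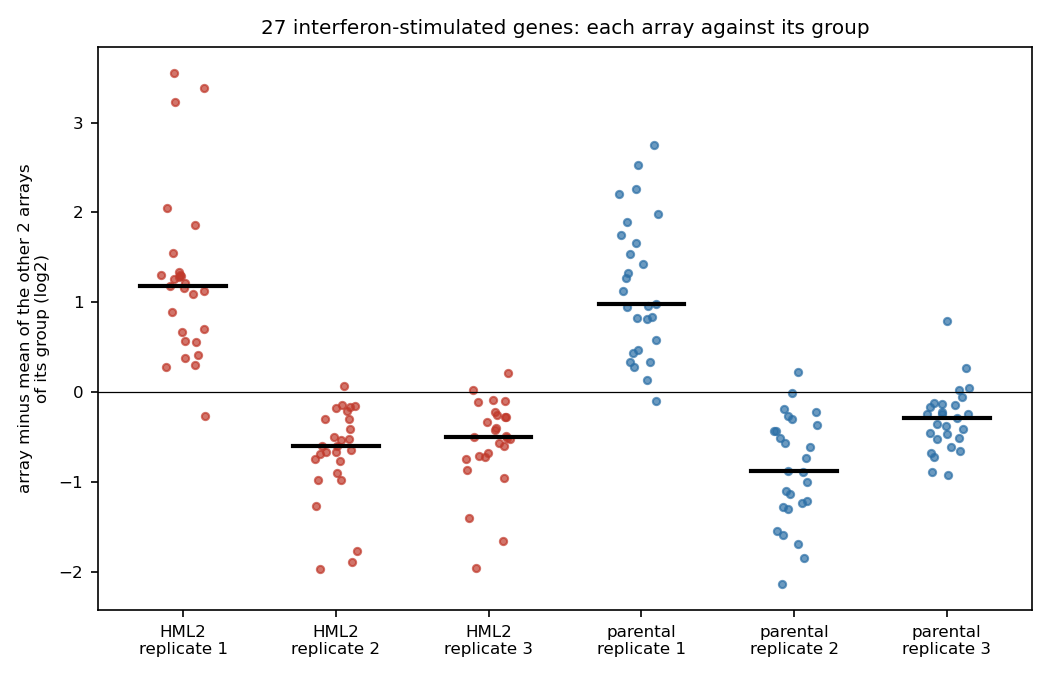
Each array's difference from the mean of the other 2 arrays of its group (log2 scale, vertical axis) for the 27 members (points), with the median as a black bar. The medians are 1.18, -0.60 and -0.50 on HML2 replicates 1 to 3 and 0.98, -0.88 and -0.29 on the parental arrays.

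Of the 50 genes at least 1 higher on replicate 1 in both groups, 11 (22%) were members, which is 40.7% of the members tested, and 39 were other genes. The 8 of these with the largest smaller difference were Gch1, Xdh, Prss56, Prtn3, Trim30d, Ccl2, Ccl5 and Cxcl10. Cxcl10, a chemokine induced by interferon-gamma, read 2845, 357 and 364 in HML2 and 505 (replicate 1), 158 and 173 in parental cells. Ccl5, another chemokine, read 1357, 367 and 406 in HML2 and 480.4, 93.9 and 243 in parental cells. Ccl2, a chemokine that attracts monocytes, read 16983, 6046 and 6893 in HML2 and 3689, 761 and 1142 in parental cells. Gch1, the first enzyme of tetrahydrobiopterin synthesis, read 2553, 450.02 and 416 in HML2 and 1119.8, 204 and 374 in parental cells. As a measure of RNA quality, the ratio of 3' to 5' signal was 0.77, 0.79 and 0.82 for Gapdh in HML2 and 0.80 on each parental array. For beta-actin it was 1.39, 1.36 and 1.39 in HML2 and 1.53, 1.41 and 1.45 in parental cells. Every HML2 ratio of beta-actin thus lay below every parental one. HML2 was compared with parental arrays by an exact two-sided permutation test (p = 0.7 for Gapdh and 0.1 for beta-actin). With 3 against 3 arrays, 0.1 is the lowest p possible. Replicate 1 against the other arrays was not tested for these ratios.

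The comparison of HML2 with parental cells asks how the selected population differs from its source. Without regard to replicate numbers, 3 members were lower and 0 higher in HML2 among the 27 tested (limma, Benjamini-Hochberg adjusted p below 0.05 over all 9361 genes), against 14.9% and 12.3% of all genes lower and higher. At an unadjusted p below 0.05, 5 were lower and 1, Herc6, was higher, against 20.9% and 18.3% of all genes. The median log2 difference of the members was -0.26, against -0.02 for all genes tested, and 20 of 27 were negative, as were 51.7% of all genes. HML2 arrays lay wholly below parental arrays for 4 members and above them for 0, against 23.8% and 20.6% of all genes. The 4 were Ifit2, Ifit3, Trim30a and Dtx3l, of which Ifit3 and Trim30a passed the filter through parental cells only. Trim30a is also 1 of the 3 called lower. Without HML2 replicate 1, 10 members were lower and 1 higher, and their median was -0.77. That fit called 1845 of all 9361 genes lower and 1577 higher, against 1395 and 1155 with all arrays. Without parental replicate 1 the median of the members was 0.14.

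Arrays with the same number correlated, as described under the processing, and the number was also used as a block. The block compares HML2 replicate 1 with parental replicate 1, and likewise for 2 and 3. The match was clearest for replicate 1. HML2 replicate 3 correlated with parental replicate 2 as much as with parental replicate 3, so matching 2 with 2 and 3 with 3 is not established. The p-values with the block rest on this pairing, which was read from the same data. With the block, 11 members were lower and 2 higher at an adjusted p below 0.05 (limma), against 19.6% and 17.8% of all genes. On all 3 numbers the HML2 array was the lower one for 13 members and the higher one for 5, against 34.0% and 31.4% of all genes. The lower members were Ifih1, Ifit1, Ifit2, Ifit3, Oas1a, Trim30a, Dtx3l, Parp9, Igtp, Ifi35 and Rtp4, and the higher ones were Ddx58 and Herc6. Of the lower ones, Ifit3 and Trim30a passed the filter through parental cells only. With both replicate 1 arrays left out, an alternative added after seeing the data, 8 members were lower and 3 higher, against 19.7% and 18.1% of all genes. The lower calls of Ifit1 (adjusted p = 0.086), Ifit3 (0.056) and Oas1a (0.087) were not made in that fit, and Samhd1 was called higher (0.045). A further Samhd1 probe set went the other way, at -0.56 over all arrays. The differences in that fit were -2.16 for Ifit2, -1.32 for Trim30a, -0.97 for Ifih1, -1.51 for Rtp4 and 0.76 for Ddx58.

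**Figure D4:**
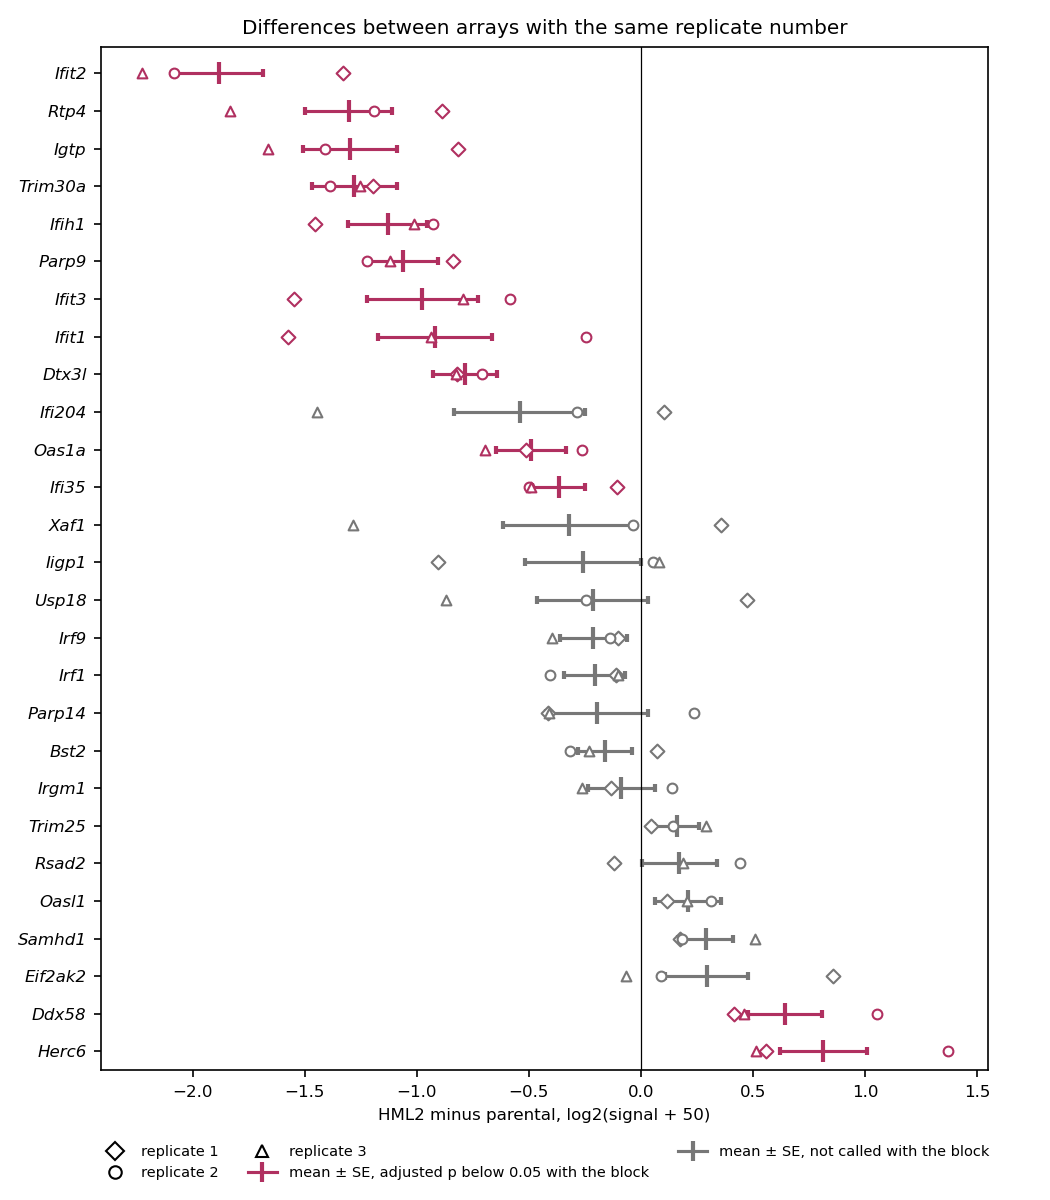
Difference between the HML2 and the parental array of the same replicate number for the 27 members (diamond, circle and triangle for replicates 1, 2 and 3; horizontal axis, log2(signal + 50)), with the mean and its SE from the fit with the replicate block. The 11 members called lower lie to the left of zero on all 3 numbers, from Ifit2 at a mean of -1.88 to Ifi35 at -0.37, and Ddx58 and Herc6 lie to the right.

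Of the 3 sensors of viral nucleic acid tested, 0 were called without the block (0 at an unadjusted p below 0.05), and with it 1 was higher and 1 lower, both of them RNA helicases. The shares over all genes were 12.3% higher and 14.9% lower without the block, and 17.8% and 19.6% with it. Ifih1, which encodes MDA5, a sensor of long double-stranded RNA, had signals of 269, 63.5 and 106 in HML2 and 825 (replicate 1), 166 and 265 in parental cells. Every HML2 array lay below the parental array of its number, although the groups overlapped. The log2 difference was -1.13 ± 0.18 (SE with the block, adjusted p = 0.0025), and without the block its SE was 0.53 (adjusted p = 0.15). Ddx58, which encodes RIG-I, a sensor of RNA with a 5' triphosphate, had signals of 1219.9, 533 and 562 in HML2 and 901, 231 and 395 in parental cells. Each HML2 array lay above the parental array of its number, with a difference of 0.64 ± 0.16 (adjusted p = 0.018 with the block and 0.32 without it). A further Ddx58 probe set gave 0.20. Eif2ak2, the double-stranded RNA-activated kinase PKR, had a difference of 0.29 ± 0.29 (adjusted p = 0.49), and its other probe sets gave -0.36 and -0.38. Dhx58 and Zbp1 were below the filter.

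Of the 4 transcription factor genes, Irf1 and Irf9 passed the filter and neither was called. Irf1 averaged 561 ± 81.0 in HML2 and 652 ± 42.8 in parental cells (SD, n = 3 each). Irf9, the DNA-binding partner of Stat2, averaged 331 ± 215 in HML2 and 384 ± 214 in parental cells (adjusted p = 0.34 for Irf1 and 0.75 for Irf9). Irf9 was higher on replicate 1 by 1.29 in HML2 and 1.13 in parental cells. Its replicates 2 and 3 read 193 and 222 in HML2 and 217 and 308 in parental cells. Stat2 read 132, 49.6 and 46.5 in HML2 and 106, 55.5 and 72.3 in parental cells, below the filter.

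Of 8 antiviral effectors tested, 1 was lower without the block and 4 with it, and 0 were higher. Over all genes tested, 14.9% were lower without the block and 19.6% with it, and 12.3% and 17.8% were higher. Among them are the IFIT genes, whose products bind foreign RNA and hinder its translation. Ifit2 had signals of 359, 126 and 139.6 in HML2 and 979, 694 and 839 in parental cells. All HML2 arrays lay below all parental arrays, replicate 1 included. The log2 difference was -1.88 ± 0.31 (SE, adjusted p = 0.0034 without the block, 0.00045 with it), and the call held in all 18 fits run, with differences of -2.27 to -1.66. Ifit3 read 69.4, 35.9 and 44.1 in HML2 and 299, 79.0 and 113 in parental cells, again without overlap. HML2 replicate 2 was in the range of the bacterial controls, and Ifit3 passed the filter through parental cells only. Its difference was -0.98 ± 0.36 (adjusted p = 0.076 without the block, 0.018 with it). Ifit1 read 265, 86.4 and 73.8 in HML2 and 888, 112 and 187 in parental cells, where HML2 replicate 1 exceeded parental replicates 2 and 3, for a difference of -0.92 ± 0.62 (0.31 without the block, 0.025 with it). The promoter stretches of Ifit1 and Ifit3, with the same matches, are printed above.

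Oas1a, an oligoadenylate synthetase that activates the ribonuclease RNase L, read 707, 162 and 155 in HML2 and 1029, 204 and 282 in parental cells. Its difference of -0.49 ± 0.16 (SE with the block) was called with the block only (adjusted p = 0.039, against 0.60 without it), and without parental replicate 1 it was 0.14. Rsad2, which encodes the antiviral enzyme viperin, read 659.65, 202 and 182 in HML2 and 720.4, 135 and 154 in parental cells, a difference of 0.17 ± 0.59 (adjusted p = 0.86). Bst2, the tether that holds budding virions at the cell surface, averaged 2157 ± 1138 in HML2 and 2318 ± 852 in parental cells (adjusted p = 0.77). Samhd1 had a difference of 0.29 ± 0.14 (adjusted p = 0.16), while a further Samhd1 probe set gave -0.56. The further probe set read 497, 522 and 580 in HML2 and 745, 929 and 770 in parental cells, without overlap. Oasl1, an oligoadenylate synthetase-like gene, differed by 0.21 ± 0.28 (adjusted p = 0.62). The other 6 effectors were below the filter. Of these, Oas2 read 77.4, 3.19 and 32.1 in HML2 and 264, 81.0 and 95.0 in parental cells, without overlap, and was not tested.

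Genes of ISG15, ubiquitin and ADP-ribose transfer had 2 lower and 0 higher members of 7 tested without the block, and 3 lower and 1 higher with it. All genes tested were lower in 14.9% and higher in 12.3% without the block, and in 19.6% and 17.8% with it. Trim30a, which in mouse restrains Toll-like receptor signalling to NF-kB, read 92.6, 27.96 and 48.2 in HML2 and 276, 154 and 185 in parental cells. The groups did not overlap, although HML2 replicate 2 was in the range of the bacterial controls. The difference was -1.28 ± 0.28 (adjusted p = 0.011), called in all 17 fits run. A further Trim30a probe set read 70.1, 1.09 and 2.44 in HML2, with replicates 2 and 3 at the level of the bacterial controls, and 341, 176 and 169.8 in parental cells. Dtx3l, a ubiquitin ligase, and Parp9, its ADP-ribosyltransferase partner, were both lower with the block. Dtx3l read 289.8, 216 and 207 in HML2 and 551, 385 and 405 in parental cells, a difference of -0.79 ± 0.19 (adjusted p = 0.017, and 0.0045 with the block). Its call was lost, with adjusted p-values up to 0.064, when HML2 replicate 2 or 3 or parental replicate 1 or 3 was left out. Parp9 read 384, 101 and 154 in HML2 and 727, 302 and 393 in parental cells, a difference of -1.06 ± 0.41 (0.091 without the block, 0.0020 with it). Parp14, a further ADP-ribosyltransferase, differed by -0.20 ± 0.53 (0.82).

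Herc6, the main ISG15 ligase in mouse, was higher in HML2 with the block. Its signals were 739.99, 513 and 455 in HML2 and 486, 168 and 304 in parental cells. HML2 replicates 1 and 2 lay above all parental arrays and HML2 replicate 3 below parental replicate 1. The difference was 0.81 ± 0.32 (adjusted p = 0.092, and 0.014 with the block), and its 2 other probe sets above the filter gave 0.45 and 0.58. Usp18, the ISG15 protease, differed by -0.22 ± 1.02 (adjusted p = 0.90, and 0.52 with the block): its pair differences were 0.47, -0.25 and -0.87 for replicates 1, 2 and 3. Trim25 averaged 3509 ± 449.9 in HML2 and 3159.8 ± 635 in parental cells (adjusted p = 0.50). Its 2 other probe sets above the filter gave 0.13 and 1.02. The dimmer of these, at 1.02, read 195, 235 and 301 in HML2 and 142, 74.7 and 73.2 in parental cells, without overlap. The probe sets used for Trim25 and Ifi35 are of a type that can match more than 1 transcript. Of the signalling and marker genes named below, the same limit holds for Tlr3, Tbk1, Irf3, Laptm5, Epcam and Cd8a.

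Of 3 interferon-inducible GTPases tested, 0 were called without the block (0 at an unadjusted p below 0.05) and 1, Igtp, was lower with it. The shares of all genes called lower were 14.9% without the block and 19.6% with it. Immunity-related GTPases defend cells against pathogens in vacuoles. Igtp read 324, 14.2 and 77.6 in HML2 and 608, 121 and 355 in parental cells. Each HML2 array lay below the parental array of its number, and HML2 replicate 2 was within the range of the bacterial controls. Its difference was -1.298 ± 0.21 (SE with the block, adjusted p = 0.0027, against 0.18 without the block). Irgm1 differed by -0.09 ± 0.34 (adjusted p = 0.87) and Iigp1 by -0.26 ± 0.41 (0.68), and neither was called with the block. The guanylate-binding protein genes Gbp2, Gbp3 and Gbp6 were below the filter. Ifi204 differed by -0.54 ± 0.43 (0.38). Among the remaining members, Rtp4 differed by -1.304 ± 1.03 without the block (0.38) and ± 0.19 with it (0.0020). Ifi35, which encodes an interferon-induced leucine zipper protein, differed by -0.37 ± 0.35 (0.48) and ± 0.12 with the block (0.042), and Xaf1 by -0.32 ± 0.92 (0.83), with 0.42 under the block.

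Some members lie on chromosomes where many other genes were lower in HML2. Dtx3l, Parp9, Parp14 and Rtp4 lie on chromosome 16, where the other 298 genes tested had a median log2 difference of -0.41. On that chromosome 41.3% of the other genes were lower without the block and 50.3% with it. The same shares were 12.5% and 15.8% on chromosome 19, which carries the IFIT genes and where the median was -0.04, and 12.6% and 16.3% on chromosome 7, which carries Trim30a. On chromosome 1, which carries Ifi204, the median of the other 520 genes was -0.32 and 34.8% were lower. Ifnar1, Ifnar2, Ifngr2 and Il10rb also lie on chromosome 16. The part of chromosomal position in the differences of these members was not tested.

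The interferons and the genes between them and the members were examined as a list of 44, of which 38 had a probe set and 25 were tested. None of the 10 interferon genes with a probe set reached a mean signal of 100. Ifnb1, the interferon-beta gene, read 80.3, 34.0 and 20.3 in HML2 and 36.3, 54.7 and 39.2 in parental cells. Ifnb1 was highest of the HML2 arrays on replicate 1, with HML2 replicates 2 and 3 in the range of the bacterial controls. Parental replicate 1 was the lowest parental array but lay just above that range, which ends at 36.2, so its rank carries little weight. Ifng, the interferon-gamma gene, read 1.29 to 26.7 over all 6 arrays, and Ifnz, a type I interferon gene, read 93.9, 161 and 120.0 in HML2 and 25.1, 81.8 and 29.1 in parental cells without being tested. All 5 receptor genes tested had negative differences, from -0.44 for Ifnar2 to -0.13 for Ifngr1, and 0 were called (limma; 0 at an unadjusted p below 0.05). In that fit 14.9% of all genes were called lower and 12.3% higher.

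Among 20 signalling genes tested, 3 were higher and 4 lower in HML2 without the block, against 12.3% and 14.9% of all genes. Tlr3, the endosomal receptor for double-stranded RNA, read 91.1, 88.6 and 119.5 in HML2 and 247, 295 and 273 in parental cells. The groups were far apart and the replicate 1 arrays were not high, and the difference was -1.11 ± 0.17 (adjusted p = 0.0027). Its mean signal reached 100 in parental cells only, so it passed the filter through the group where it is high. Myd88, the adaptor of most other Toll-like receptors, averaged 899.9 ± 198 in HML2 and 447 ± 31.6 in parental cells (SD, n = 3 each), a difference of 0.91 ± 0.18 (0.0074). Smaller differences were called for Ikbke (0.67), a kinase that activates Irf3, Ptpn2 (0.33), a phosphatase of JAK and STAT proteins, Pias1 (-0.46), a STAT inhibitor, Cgas (-0.43), a DNA sensor, and Ptpn11 (-0.39), the phosphatase SHP2. The calls of Cgas, Pias1 and Ptpn11 were lost when any array but HML2 replicate 1 was left out, that of Ptpn2 when any array was, and that of Ikbke without HML2 replicate 2 or parental replicate 1 or 3. With all arrays kept, those of Cgas, Ptpn11, Ptpn2 and Ikbke were lost without the filter. Quantile normalization lost Cgas and Ptpn2, median centring and probe set means lost Cgas and Ptpn11, and the fit without a trend lost Ptpn11 and Ptpn2. The kinase genes Jak1 (0.09, adjusted p = 0.60) and Tbk1 (-0.04, adjusted p = 0.87, with the sign reversed by median centring, probe set means, array weights and some left-out arrays) were not called. With the block, Irf3 was also higher (0.50, adjusted p = 0.043) and Jak2 lower (-0.56, adjusted p = 0.034). Without both replicate 1 arrays, 2 genes of the list were higher and 6 lower, against 18.1% and 19.7% of all genes. The difference of Tlr3 in that fit was -1.12. None of the 25 genes was higher on replicate 1 by 1 log2 unit in either group, and their median replicate 1 difference was 0.05 in HML2 and 0.08 in parental cells.

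Markers of cell types that could accompany tumour cells were measured in the same arrays. Of 12 leukocyte markers 4 had a mean signal of at least 100, and the summed signal of all 12 was 1713 to 2126 in HML2 and 1015 to 1268 in parental cells. The higher sums in HML2 came from Laptm5 alone, which read 1078 to 1310 in HML2 and 236 to 389 in parental cells. The leukocyte-defining gene Ptprc read 0.99 to 19.8 over the 6 arrays. Laptm5 was higher in HML2 (1.80 ± 0.18, adjusted p = 0.00039), Lyz2, which passed the filter through parental cells only, was lower (-0.91 ± 0.18, adjusted p = 0.0074) and Coro1a was not called (0.02, adjusted p = 0.95). On replicate 1 these 3 genes differed from the other arrays by at most 0.69 in either group. Cd68, a macrophage marker below the filter, read 216, 55.1 and 47.6 in HML2 and 75.2, 63.1 and 52.4 in parental cells, so it was high on HML2 replicate 1 only. Of 7 T and NK cell markers 0 reached 100, with sums of 89.7 to 209.6 in HML2 and 103 to 153 in parental cells; the brightest were Cd8a and Ncr1. For plasmacytoid dendritic cells, known for interferon production, Siglech read 10.2 to 30.2 in all. The sums of this list were 5409 (replicate 1), 2449 and 2678 in HML2 and 6067 (replicate 1), 3335 and 3804 in parental cells, mostly Bst2, itself a member, and Tcf4, so they were highest on replicate 1 in both groups. Tcf4 was higher on replicate 1 by 0.77 in HML2 and 0.67 in parental cells, and its difference between the groups was -0.66 (adjusted p = 0.11 without the block, 0.0042 with it). Irf8, of the same list and below the filter, read 168, 7.83 and 40.5 in HML2 and 83.9, 61.8 and 13.3 in parental cells, highest on replicate 1 in both groups. Endothelial markers, led by Icam2 and Kdr, summed to 228 to 333 in HML2 and 67.3 to 140.1 in parental cells. The higher sums in HML2 came mostly from Icam2, which read 94.1 to 228 in HML2 and 5.13 to 8.05 in parental cells. Cdh5 was also higher (mean 55.1 in HML2, 19.45 in parental cells). Kdr (53.5 and 68.6) and Pecam1 (5.96 and 10.4) were lower in HML2. Pecam1 on all arrays, and Cdh5 in parental cells, lay within the range of the bacterial controls. Lung epithelial markers, led by Sftpb and Sftpc, summed to 136 to 247 in HML2 and 113 to 205 in parental cells. Of the tumour markers, Vim was bright in both groups (39056 ± 2411 in HML2 and 43558 ± 4869 in parental cells), Krt8 was higher in HML2 (1.87 ± 0.14, adjusted p = 8.1e-05), and the epithelial cadherin gene Cdh1 read 3.76 to 45.1. Epcam, which passed the filter through parental cells only, went the other way without overlap and was not called (-0.45, adjusted p = 0.12). Krt18, below the filter, read 59.7 to 100.5 in HML2 and 25.4 to 41.1 in parental cells. The part of these markers in the results was not tested.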

How the data were processed

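The authors deposited linear intensities from MAS5 (per the submitters' processing notes), with no log taken; the sources used here name no version, settings or build. On all 6 arrays the mean signal without the lowest and highest 2% was 500. Of 45101 probe sets, 34958 had 1 gene symbol in an annotation of 2016, updated through RefSeq (GRCm38.p6).

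Signals became log2(signal + 50), which understates changes of dim genes. All 9361 genes with a mean signal of at least 100 were fitted in limma 3.58.1 (R 4.3.3; lmFit, eBayes with trend), with Benjamini-Hochberg adjustment and a threshold of 0.05. The fits with and without the block were tested on simulated data. Those arrays were drawn independently, without a shift shared by same-numbered arrays, so the simulation does not cover that feature. The main fit had no covariate. Deviations from group means of same-numbered arrays correlated at 0.45, 0.34 and 0.24, all above the bound of 0.1 used, and at 0.44, 0.32 and 0.23 without the members; the pairing comes from the data, since the labels give no meaning to the numbers. HML2 replicate 3 and parental replicate 2 also correlated at 0.24, as much as HML2 replicate 3 and parental replicate 3. Deviations within a group are tied to each other, so a match of the replicate 1 arrays alone raises the correlations among the other arrays.

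Genes named were members called with or without the block, the 3 brightest of each functional group, the 8 members with the largest replicate 1 differences, called and 4 brightest signalling genes, the 2 brightest markers of each cell type, and 8 genes outside the list with the largest replicate 1 differences. All other genes and second probe sets named were added after their values were seen. Members and lists were chosen with earlier results of these data known. Alternatives were offset, filter, normalization, probe set choice, array weights, trend, replicate block and left-out arrays.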

Additional observations from a re-analysis of the deposited data

How the results depend on the processing

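The count of members called depended on how the replicates were handled: 3 in the fit without a block, 13 with the replicate block, 14 with array weights, 11 without both replicate 1 arrays (added after seeing the data) and 2 to 11 when 1 array was left out, the 11 without HML2 replicate 1. Array weights called 2422 genes higher and 2631 lower over the whole table, where the fit without a block or weights called 1155 and 1395. The replicate block called 1670 and 1831, and the fit without HML2 replicate 1 called 1577 and 1845. The pairing block added calls, Irf3 and Jak2 among the signalling genes included, and changed no other call of these lists. Offsets of 16 and 100, quantile normalization, median centring, probe set means, other filters and the fit without a trend kept the count at 2 or 3. The count of ligand, receptor and signalling genes was 7 in the main fit and with both other offsets. It was 3 without the filter, and 5 at a mean signal of 200, with quantile normalization or without a trend. Median centring and probe set means gave 6. The count was 9 with the block, 14 with array weights, 8 without both replicate 1 arrays and 2 to 8 when 1 array was left out. The counts of members higher on replicate 1 stayed within 15 to 19 in HML2 and 10 to 16 in parental cells under the alternatives of offset, filter, normalization, probe set choice and left-out array.

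Some differences that were not called without the block changed sign, that of Oas1a, called with the block, among them. Tbk1 (-0.04) was 0.00595 with median centring, 0.0510 with probe set means, 0.0501 with array weights and 0.0841 without both replicate 1 arrays. Eif2ak2 (0.29) was -0.15 with probe set means and -0.0227 with array weights, Samhd1 (0.29) was -0.16 with probe set means, which average probe sets of opposite sign, and Iigp1 (-0.26) was 0.0664 without both replicate 1 arrays. With 1 array left out, differences ran from -0.55 to 0.12 for Bst2, -0.0824 to 0.49 for Eif2ak2, -0.57 to 0.25 for Iigp1, -0.64 to 0.16 for Irf9, -0.39 to 0.23 for Irgm1, -1.11 to 0.14 for Oas1a, -0.0125 to 0.48 for Oasl1, -0.64 to 0.36 for Parp14, -0.35 to 0.83 for Rsad2, -0.13 to 0.10 for Tbk1, -1.40 to 0.63 for Usp18 and -1.40 to 0.41 for Xaf1. The cause was not tested. Signals within the range of the bacterial controls, 1.97 to 36.2, carry no order.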
